A study of Mus musculus with 5 samples.

Results

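EndoEC-dominant spots are the capture spots of neonatal mouse heart sections whose highest cell type score was the endocardial one. Each Visium spot, a barcoded disc under the tissue that can hold several cells, carried 11 cell type scores that the study had transferred from its single-nucleus reference. A spot was taken when EndoEC had the highest of the 11 scores and the raw count was at least 1000 unique molecular identifiers (UMIs). Of 3364 spots in 5 sections, 201 met this rule, and the 3138 other spots above the same count on the main piece of tissue were the reference. The scores were computed from the same expression values, so the contrast between EndoEC-dominant and other spots is described without a test.

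All sections were transverse, 10 µm thick, and came from hearts of wildtype C57BL/6 mice operated on postnatal day 1. Myocardial infarction (MI) was induced by tying off the left anterior descending artery, and sections were cut 200 µm below the suture, or at the equivalent height after a sham operation. The groups were sham day 3 (1 section), MI day 3 (1 section), sham day 7 (1 section) and MI day 7 (2 sections), counted in days after surgery, and values below follow the order sham day 3, MI day 3, sham day 7, MI day 7 replicate 1 and MI day 7 replicate 2. Per the study, each section of the 3 single-section groups came from 1 biological sample and the MI day 7 sections from independent ones, so p-values measure the spread between sections. Sections held 11396022 to 37492530 raw UMIs, and the median of the EndoEC-dominant spots was 20748.5, 30730, 21643, 48463 and 20261 UMIs against 20845, 35628.5, 23028, 54436 and 21026 in other spots. The log2 ratio of these medians was below 0 in 5 of 5 sections, with a mean of -0.11 ± 0.08 (SD, n = 5; exact two-sided sign-flip p = 0.063, the smallest that 5 sections allow). Pairs of sections shared 3 to 449 spot barcodes, which name positions of the slide layout. Levels are given as CPM, the values of a spot scaled to the same total in every spot, averaged over spots, and the log2 ratios were taken after adding 1.

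The endocardium is the endothelial sheet that lines the heart chambers, covers the trabeculae and continues over the valves. It signals to the adjoining muscle through ligands such as neuregulin, and the fast-conducting Purkinje fibres lie just beneath it. In the young heart it differs from the coronary capillaries, the other large endothelial bed, which carry fatty acid handling and water channel genes.

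The EndoEC-dominant spots numbered 48, 32, 43, 45 and 33. They made up 8.84% (exact 95% binomial interval 6.59 to 11.55), 8.79% (6.09 to 12.2), 4.48% (3.26 to 5.99), 6.56% (4.83 to 8.68) and 4.20% (2.91 to 5.85) of the spots used, intervals that cover counting error only. Both day 3 sections lay above the day 7 sections, a comparison that was not tested. The mean share was 6.52% ± 2.30 (SD, n = 3) in MI and 6.66% ± 3.08 (SD, n = 2) in sham sections, a difference of -0.14 percentage points (exact two-sided permutation p = 0.7, where 0.2 is the smallest value possible). That difference changed sign when sham day 3 (2.04) or MI day 7 replicate 2 (1.02) was left out.

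Their EndoEC score had a median of 68.0% and a range of 24.7% to 99.1%. The runner-up score was that of fibroblasts (FB) in 112 spots, the CM1 cardiomyocytes in 40, CM4 cardiomyocytes in 16 and the non-endocardial endothelial class (EC) in 15. Mean FB scores were 9.51% to 19.95% by section, whereas the EC score averaged 2.32% to 3.11%, against 7.09% to 12.3% in other spots. There were 15 spots within 0.05 of losing the highest rank, with EndoEC scores of 28.8% to 48.7%. Just outside were 10 spots, with EndoEC scores of 21.5% to 48.5%.

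An EndoEC-dominant spot had on average 26.9%, 54.2%, 17.8%, 31.5% and 18.2% of its neighbours in the same class, against 7.03%, 4.48%, 3.93%, 4.74% and 3.42% for other spots, a mean difference of 24.99 ± 14.7 percentage points (SD, n = 5; higher in 5 of 5 sections, exact two-sided sign-flip p = 0.063). MI day 3 stood out with 25 of its 32 spots joined in 1 central patch. The largest joined group in the other sections held 6, 11, 16 and 8 spots, and 35 of the 201 spots had no neighbour of their class (4, 0, 15, 4 and 12 by section).

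Each section held EndoEC-dominant spots both near the middle and farther out. Taking radius as the distance from the centre of the section divided by its 95th percentile, 13, 25, 19, 13 and 6 EndoEC-dominant spots lay within 0.5 of the radius and are called central. The other 35, 7, 24, 32 and 27 are called peripheral. On the rim itself or beside an enclosed gap, where a spot has fewer than 6 neighbours, lay 15 of the 201 spots, or 4.17%, 0%, 4.65%, 6.67% and 24.2% of the class, against 17.0%, 22.3%, 13.1%, 14.7% and 20.05% of other spots. The share was lower than in other spots in 4 of 5 sections and higher in MI day 7 replicate 2, which held 8 of the 15. Depth below the nearest edge, counted in rings of spots, was 4.06, 5.47, 6.56, 4.62 and 1.79 in EndoEC-dominant spots and 3.57, 2.45, 4.54, 4.12 and 2.32 in other spots. They lay deeper in 4 of 5 sections, by 1.10 ± 1.41 rings (SD, n = 5; exact two-sided sign-flip p = 0.25). The mean fell to 0.62 rings when MI day 3 was left out. MI day 7 replicate 2 went the other way, and this section also held 6 of the 9 enclosed gaps, with 5 EndoEC-dominant spots beside them. Counted from the outer rim alone, a measure chosen after the positions were seen, its difference was -0.15 rings and the mean over sections was 1.21.

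**Figure D1:**
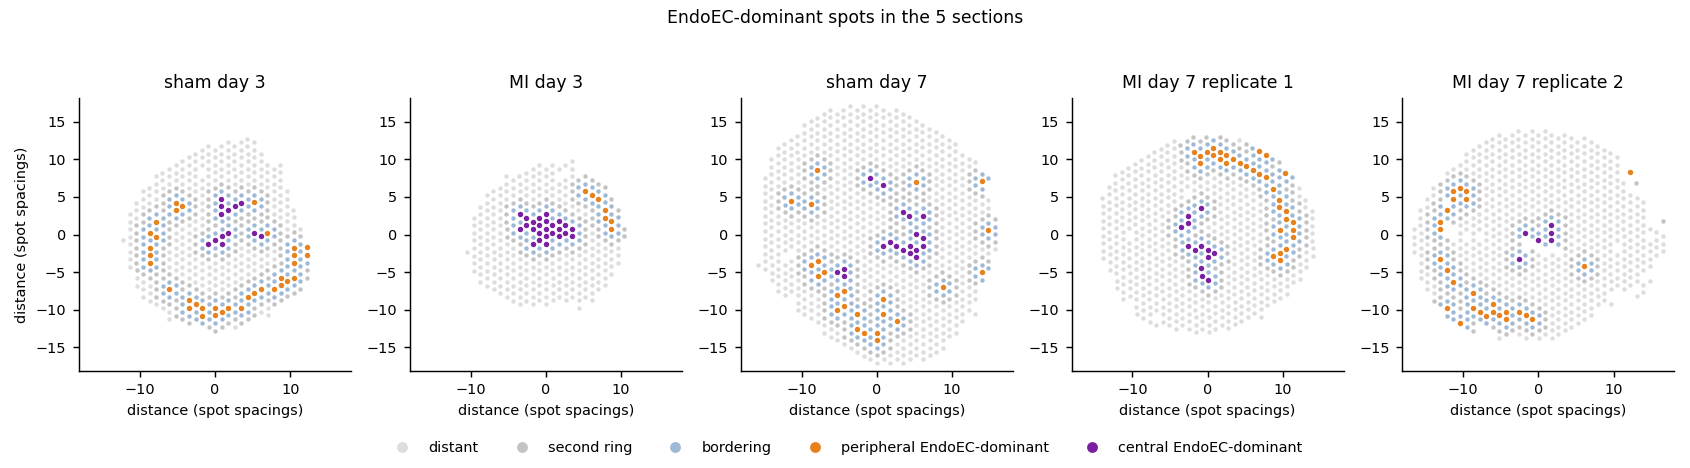
Each panel maps the spots of 1 section, with both axes as distance from the middle of the section in spot spacings. Purple and orange points are central and peripheral EndoEC-dominant spots, blue points are bordering spots and grey points lie farther away. Central and peripheral spots occur in each section, and in MI day 3 the largest joined patch holds 25 of 32 spots.

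The class was checked against Npr3, Plvap, Vwf and Cgnl1. Npr3 encodes the natriuretic peptide clearance receptor (GRCm38, chr15:11839896-11907287, minus strand), and Plvap the diaphragm protein of endothelial fenestrae and caveolae (chr8:71497765-71511752, minus strand). Vwf encodes von Willebrand factor (chr6:125546774-125686679, plus strand), and Cgnl1 the junction protein paracingulin (chr9:71626509-71771602, minus strand). All 4 are protein-coding in GENCODE M21. Levels were summed over whole genes, so exon, intron or UTR use was not measured. Every marker was higher in EndoEC-dominant than in other spots in 5 of 5 sections, and the median of their mean log2 ratios was 2.47, against 0.01 over all 13383 genes considered.

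Npr3 measured 58.8, 79.1, 27.9, 34.4 and 68.9 CPM in EndoEC-dominant spots and 10.4, 9.24, 4.12, 4.47 and 7.44 CPM in other spots. The lowest EndoEC-dominant level exceeded the highest level of other spots, and the log2 ratio was 2.72 ± 0.29 (SD, n = 5). Plvap measured 84.5, 113, 78.9, 49.9 and 67.6 CPM against 11.5, 18.3, 9.22, 6.05 and 11.8 CPM, a log2 ratio of 2.72 ± 0.22 without overlap. Vwf was the least even of the markers. It reached 35.7, 88.4, 93.7, 102 and 164 CPM against 16.6, 16.2, 22.8, 14.001 and 21.5 CPM, so that its fold ranged from 2.08 in sham day 3 to 7.35. Cgnl1 measured 72.1, 77.7, 45.8, 38.8 and 38.2 CPM against 22.7, 16.4, 18.4, 16.2 and 12.9 CPM, with a log2 ratio of 1.56 ± 0.38.

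**Figure D2:**
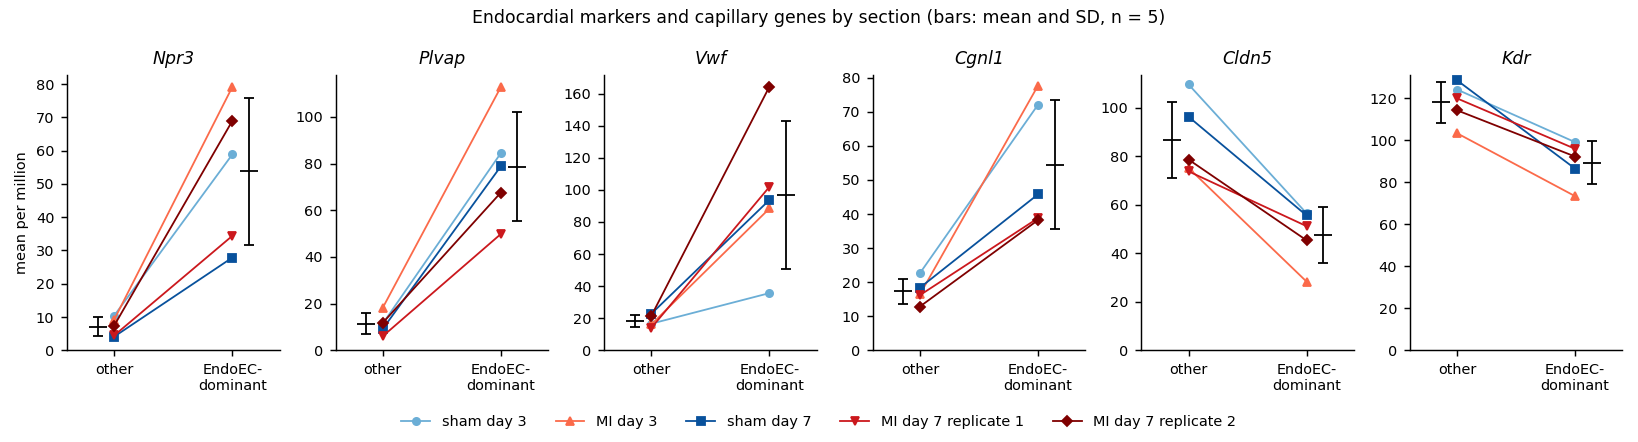
Lines join the mean level (CPM, linear axis from 0) of other and EndoEC-dominant spots of each section for the endocardial markers Npr3, Plvap, Vwf and Cgnl1 and for the vascular endothelial genes Cldn5 and Kdr; black bars give mean and SD over 5 sections. All lines rise for the markers and fall for Cldn5 and Kdr.

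Single spots were sparse in these transcripts. The share of EndoEC-dominant spots in which Npr3 was detected was 64.6%, 84.4%, 37.2%, 73.3% and 72.7%, against 13.9%, 20.8%, 7.09%, 14.5% and 11.6% of other spots. In EC-dominant spots, the vascular endothelial class, whose median depth was 22907, 39497, 24270, 53116 and 20821 UMIs, Npr3 was detected in 13.3%, 36.4%, 5.80%, 13.8% and 3.23%. All 4 markers were detected together in 22.9%, 53.1%, 20.9%, 55.6% and 21.2% of EndoEC-dominant spots and in 0.930% to 2.50% of other spots. None of the 4 was detected in 1, 2, 5, 0 and 2 EndoEC-dominant spots. In sham day 3, whose table holds raw counts, the 48 spots carried 56 Npr3 UMIs (exact 95% Poisson interval 42.3 to 72.7) in 999749, and the 495 other spots 91 (73.3 to 112) in 10395391.

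Among the 13383 genes, 78 (0.583%) were at least 1.5-fold higher in EndoEC-dominant spots in each of the 5 sections and 13 (0.0971%) at least 1.5-fold lower. At any size of difference, 1181 genes (8.82%) were higher and 738 (5.51%) lower in all 5 sections. The 15 genes with the largest ratio in their least-changed section, among genes of at least 20 CPM, included Plvap, Npr3, Foxc1, Cytl1, Bace2, Tmem108, Cdh11, H19, Cemip2, Cgnl1, Hmcn1, Tm4sf1, Igfbp5 and Igf2. Foxc1, a forkhead transcription factor, measured 38.9, 46.0, 24.6, 25.5 and 42.5 CPM against 8.42, 7.14, 5.20, 5.78 and 6.57 CPM (log2 ratio 2.23 ± 0.27, n = 5). Cytl1, a secreted cytokine-like protein, had the highest mean ratio of the 15, 2.85 ± 0.67, with 25.8, 42.2, 33.7, 33.8 and 31.8 CPM against 5.89, 2.02, 4.26, 3.98 and 3.38 CPM. Bace2 (a protease) and the cadherin gene Cdh11 had log2 ratios of 2.30 ± 0.45 and 1.75 ± 0.24.

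Members of the imprinted cluster on chromosome 7 stood among the most abundant of these genes. H19, a non-coding RNA (chr7:142575529-142578143), measured 1838, 1283, 571, 528 and 621 CPM against 490, 345, 223, 166 and 227 CPM. Igf2, which encodes insulin-like growth factor 2 (chr7:142650766-142666816), measured 1076, 901, 461, 469 and 527 CPM against 498, 322, 217, 211 and 186 CPM. Both were lower in each day 7 section than in each day 3 section, in EndoEC-dominant and in other spots alike, levels set across tables that were normalised separately. Their ratios lay between 1.36 and 1.91 (H19) and between 1.09 and 1.49 (Igf2) on the log2 scale. Igfbp5, which encodes a binding protein of these growth factors, was the least even of the 15, with 848 CPM in sham day 3 and 149 to 314 CPM elsewhere.

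Upstream sequence is shown for 3 of the genes at least 1.5-fold higher in every section, Cgnl1 as a marker and Cytl1 and Cntn2 as genes that also passed the test in bordering spots below. The RefSeq table (GRCm38.p6) matched 51 of the 78 genes and 10421 of the genes in the files. Each run is the 250 bases before the transcript start, 5′ to 3′ on the gene's strand, at chr9:71771603-71771852 (minus), chr5:37735269-37735518 (plus) and chr1:132542941-132543190 (minus), with capitals for matches to the letters AGGAAG of ETS factors, AGATAA of GATA factors or GTAAACA of forkhead factors on either strand.
Cgnl1: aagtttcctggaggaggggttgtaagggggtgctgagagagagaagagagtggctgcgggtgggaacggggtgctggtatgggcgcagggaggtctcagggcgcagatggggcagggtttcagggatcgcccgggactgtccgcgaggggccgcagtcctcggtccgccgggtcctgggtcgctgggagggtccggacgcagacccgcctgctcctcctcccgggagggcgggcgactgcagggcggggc
Cytl1: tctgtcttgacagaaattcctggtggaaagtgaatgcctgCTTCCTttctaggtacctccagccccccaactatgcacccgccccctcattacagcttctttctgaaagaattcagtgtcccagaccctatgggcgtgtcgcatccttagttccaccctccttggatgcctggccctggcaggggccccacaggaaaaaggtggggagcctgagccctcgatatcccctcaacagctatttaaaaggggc
Cntn2: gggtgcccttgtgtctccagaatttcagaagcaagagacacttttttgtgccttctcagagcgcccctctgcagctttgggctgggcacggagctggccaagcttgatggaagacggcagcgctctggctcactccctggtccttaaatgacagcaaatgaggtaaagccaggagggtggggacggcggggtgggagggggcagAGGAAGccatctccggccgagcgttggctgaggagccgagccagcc
The windows of Npr3, Foxc1 and Irx3, which are not printed, held no match to any of these letters. The ETS letters were present in 15 of the 51 windows (29.4%), against 29.2% of all 27025 windows and 27.5% of the 10421 windows of genes in the files. The GATA letters were present in 3 (5.88%, against 10.3% and 5.7%) and the forkhead letters in 2 (3.92%, against 3.09% and 2.02%).

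Of 13 other endocardial genes measured, 7 were at least 1.5-fold higher in every section (0.583% of all genes) and none lower (0.0971%), with a median log2 ratio of 1.25. Smoc1, a matricellular protein gene, measured 15.02, 30.8, 15.7, 14.1 and 13.5 CPM against 3.34, 1.03, 1.24, 1.34 and 1.48 CPM. Emcn, which encodes the sialomucin endomucin, measured 103, 232, 84.1, 90.9 and 128 CPM against 50.5, 56.8, 42.8, 51.9 and 46.0 CPM. Nfatc1, a transcription factor of valve endocardium, was less marked, at a log2 ratio of 0.47 ± 0.61 and higher in 4 of 5 sections. The transcription factor genes Tbx20 and Gata4, which cardiomyocytes also use, had log2 ratios of 0.22 ± 0.13 and 0.13 ± 0.14.

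Endothelial genes divided. Of 15 pan-endothelial genes, Emcn, Tek and Eng met the 1.5-fold rule (0.583% of all genes) and none was 1.5-fold lower in every section (0.0971%), with a median log2 ratio of 0.08. At any size of difference, 5 were higher (8.82% of all genes) and 3 lower (5.51%) in every section. Tek, the angiopoietin receptor, measured 108, 98.8, 86.7, 93.7 and 89.4 CPM against 60.6, 47.2, 54.1, 57.3 and 49.3 CPM. Cdh5, which encodes VE-cadherin, did not stand apart, at a log2 ratio of -0.04 ± 0.12 and higher in 2 of 5 sections. The tight junction gene Cldn5 was lower in every section, at 56.4, 28.3, 55.5, 51.1 and 45.3 CPM against 110, 75.1, 96.2, 73.7 and 78.6 CPM (log2 ratio -0.88 ± 0.32). Kdr, the main VEGF receptor, was also lower in every section, with a log2 ratio of -0.40 ± 0.12.

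Of 12 coronary capillary genes, 9 were lower in all 5 sections, against 5.51% of all genes, none was higher in all 5, and the list median was -0.54. None of them reached 1.5-fold in every section. Car4, a carbonic anhydrase of capillaries, had the lowest mean ratio, -1.40 ± 0.83, and Aplnr, the apelin receptor, had -0.73 ± 0.69. The fatty acid genes Fabp4 and Cd36 had ratios of -0.38 ± 0.32 and -0.39 ± 0.22. The 10 genes of at least 20 CPM that were lowest by their least-changed section were Cldn5, Rbp7, Kdr, Ly6c1, Ptgds, Scarb1, Kcnip2, Tcim, Cd36 and Mgll. None of these 10 was 1.5-fold lower in every section, and the 13 genes that were did not reach 20 CPM in EndoEC-dominant spots of every section.

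In each signalling list 1 or 2 genes met the 1.5-fold rule (0.583% of all genes). Higher in all 5 sections at any size (8.82% of all genes) were 7 of 20 BMP and TGF-beta genes, 5 of 15 Notch genes, 5 of 11 haemostasis genes, 4 of 8 endothelin and nitric oxide genes, 3 of 14 VEGF and angiopoietin genes and 1 of 6 neuregulin genes. Their list medians on the log2 scale were 0.21, 0.14, 0.26, 0.38, -0.09 and 0.02, against 0.01 over all genes. Lower in all 5 sections (5.51% of all genes) were 4 VEGF and angiopoietin genes, 1 Notch gene, 1 endothelin and nitric oxide gene and 1 neuregulin gene. In the neuregulin list, the ligand gene Nrg1 measured 0.981, 18.4, 4.21, 2.90 and 11.9 CPM against 0.166, 1.73, 0.341, 0.781 and 1.09 CPM. In sham day 3 this rests on 1 UMI in the class and 2 UMIs in other spots. Its receptors Erbb2, Erbb3 and Erbb4 had log2 ratios of -0.51, -0.83 and 0.01. In the Notch list, 1 of 15 genes met the rule, the ligand gene Dll1, with 5.33, 8.19, 9.93, 6.70 and 5.89 CPM against 1.65, 4.06, 2.98, 2.87 and 1.97 CPM. The receptor gene Notch1 was higher in 5 of 5 sections at a ratio of 0.67 ± 0.21, and the ligand genes Jag1 and Dll4 had ratios of -0.13 and -0.21. In the BMP and TGF-beta list, 2 of 20 genes met it: the co-receptor gene Eng (0.90 ± 0.24) and the target Id2 (1.28 ± 0.41), which encodes an inhibitor of DNA binding. The ligand gene Bmp6 (1.05 ± 0.73) and the inhibitory Smad6 (0.97 ± 0.65) were higher in 5 of 5 sections without meeting it.

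In the endothelin and nitric oxide list, 1 of 8 genes met the rule, Ece1, the endothelin-converting enzyme, with 105, 178, 66.0, 74.2 and 70.2 CPM against 42.7, 41.3, 39.7, 35.0 and 38.2 CPM. The ligand gene Edn1 was higher in 4 of 5 sections (0.93 ± 1.03), and Nos3, the endothelial nitric oxide synthase, in 5 of 5 (0.59 ± 0.30). In the haemostasis list, 2 of 11 met it, Vwf and Procr, the endothelial protein C receptor (1.61 ± 0.11). In the VEGF and angiopoietin list Tek alone of 14 met it, and among natriuretic peptides and receptors Npr3 alone of 7. Nppa, the atrial natriuretic peptide gene, had levels of 553, 14718, 335, 160 and 382 CPM against 616, 7569, 311, 159 and 1303 CPM, with no shared direction.

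Genes of cells that adjoin the endocardium were present in the same spots. Of 14 measured conduction system and trabecular genes, 4 met the rule (Cntn2, Etv1, Id2 and Sema3a; 0.583% of all genes) and 7 were higher in all 5 sections (8.82% of all genes). For Cntn2, sham day 3 gave 3 UMIs in the class (exact 95% Poisson interval 0.619 to 8.77 CPM) and 12 in other spots (0.597 to 2.02 CPM), intervals that overlap. Etv1, a transcription factor of fast-conducting cardiomyocytes, measured 28.1, 23.5, 24.99, 30.8 and 27.7 CPM against 15.8, 13.9, 14.1, 14.98 and 14.4 CPM. Of 8 valve mesenchyme genes, Cytl1 and the Wnt inhibitor gene Wif1 (1.36 ± 0.48) met it, and Postn, the matrix protein periostin, was higher in 5 of 5 sections (0.78 ± 0.34). The lists overlap: Cytl1 was also counted among other endocardial genes and Id2 among BMP and TGF-beta genes. Of 11 fibroblast genes, 5 were higher in all sections (8.82% of all genes), none met the rule, and their summed level was 6560 to 11049 CPM against 4734 to 8421 CPM. Of 15 ventricular cardiomyocyte genes, 10 were lower in every section (5.51% of all genes), with a list median of -0.16. More cells of a type and more RNA per cell cannot be told apart in a spot.

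Blood and immune markers varied by section. The summed level of 7 red blood cell genes was 5109 to 30154 CPM in EndoEC-dominant spots and 4339 to 10206 CPM in other spots, and no member had the same direction in all 5 sections. The haemoglobin gene Hba-a1 measured 1630, 10591, 2088, 1710 and 8577 CPM against 1386, 2767, 2090, 2313 and 3391 CPM. The medians over spots were lower, at 651, 3616, 1675, 1134 and 2429 CPM against 739, 1695, 1149, 1621 and 1938 CPM, and single spots reached 49190 CPM in MI day 3 and 105800 CPM in MI day 7 replicate 2. Of 11 macrophage genes, none was higher in every section, and their sum was 122 to 703 CPM against 134 to 1226 CPM. Lymphatic genes summed to 56.0 to 94.6 CPM against 58.2 to 93.0 CPM. The part of these cells in the results was not tested. No arterial gene (of 10), shear-responsive gene (of 9), mural gene (of 9) or epicardial gene (of 5) met the 1.5-fold rule. Of 4 venous genes Vwf alone met it, but all 4 were higher in all 5 sections (8.82% of all genes), and their sum was 192 to 281 CPM against 104 to 125 CPM. Vwf is also a marker that the class was checked against, and the sum includes it. In MI day 7 replicate 2 it was the larger part of the sum. Cell cycle genes (10) and genes of the Nrf family and its targets (8), the study's subject, had median log2 ratios of 0.09 and 0.07, and none met the 1.5-fold rule. Nfe2l1, which encodes Nrf1, averaged 118 CPM in EndoEC-dominant and 104 CPM in other spots (0.17 ± 0.19, higher in 4 of 5 sections).

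**Figure D3:**
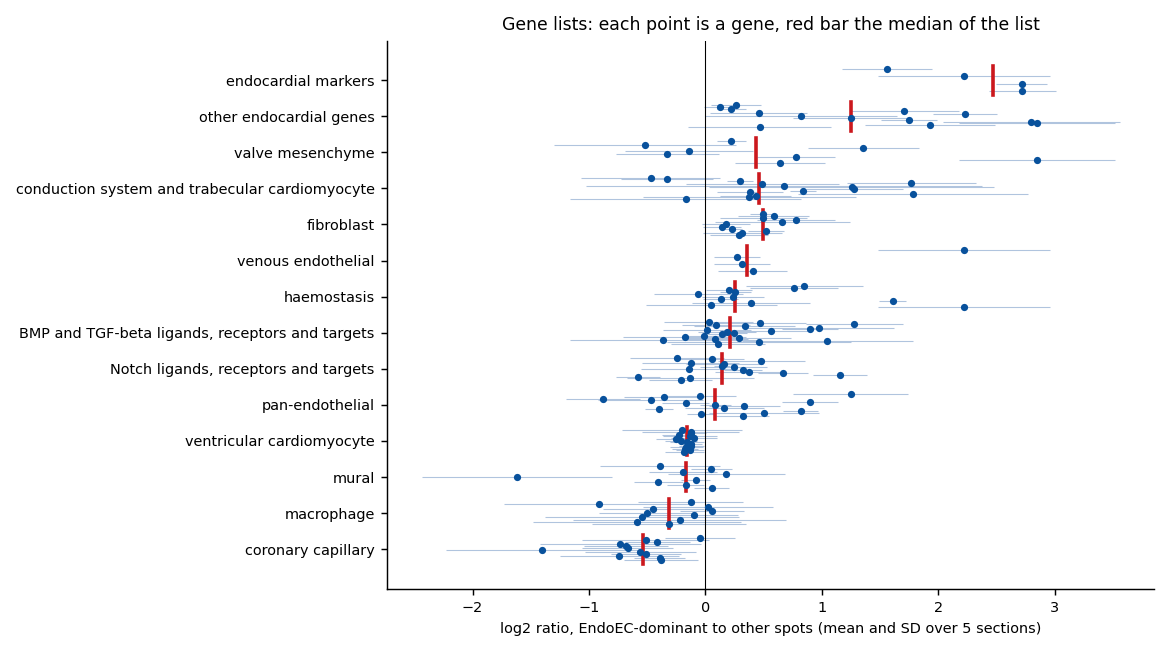
Each blue point is a gene placed by its log2 ratio between EndoEC-dominant and other spots, with bars for the SD over 5 sections, and the red bar is the median of the list. The endocardial lists lie to the right (medians 2.47 and 1.25), pan-endothelial genes spread on both sides, and coronary capillary genes lie to the left (median -0.54).

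The spots next to the class were tested, since they were picked by place and had another type as their highest score. Their place was set by the EndoEC scores of the class, so the test depends less on the rule but is not independent of it. Calls of the markers and of genes already higher in the class are therefore no separate support for the class. The 551 bordering spots (ring 1) were compared with the 1991 distant spots at least 3 rings away, in limma with the section as block. Of 13339 genes tested, 64 (0.48%) were higher and 21 (0.157%) lower in bordering spots at a Benjamini-Hochberg adjusted p below 0.05. Of the 64, 31 were also among the 78 genes 1.5-fold higher in the class, which is 48.4% of the 64 and 39.7% of the 78. The mean EndoEC score of bordering spots was 2.60% to 6.93% by section, against 0.193% to 1.25% in distant spots.

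All 4 endocardial markers were higher beside the class. Npr3 measured 20.9, 26.7, 9.97, 10.9 and 17.0 CPM in bordering and 5.90, 4.83, 2.55, 2.29 and 4.39 CPM in distant spots (log2 difference 1.83, SE 0.15, limma adjusted p = 3.4e-06). Plvap (1.45, SE 0.14), Vwf (1.10, SE 0.12) and Cgnl1 (0.70, SE 0.14) were higher in 5 of 5 sections as well. Their levels fell off with distance: averaged over sections, Npr3 had 53.8 CPM in the class and 17.1, 8.52, 4.89 and 3.88 CPM in rings 1, 2, 3 and 4 or beyond. H19 (0.73, SE 0.07) and Igf2 (0.62, SE 0.05) showed the same order from ring 1 to ring 2 and ring 3.

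A group of conduction and trabecular genes passed in the same test. Of 14 measured members of that list, 7 were higher in bordering spots, among them Cntn2, Irx3, Etv1, Id2, Cpne5 and Kcne1 (0.48% of all genes), and none lower (0.157%), with a list median of 0.47 against 0.01 over all genes tested. Irx3, an Iroquois transcription factor of the fast conduction system, measured 38.1, 50.8, 24.1, 32.8 and 43.8 CPM against 24.1, 24.2, 15.3, 19.6 and 35.2 CPM (0.67, SE 0.10, adjusted p = 0.0025 in limma). The bordering level exceeded the distant level in each section. Etv1 had a log2 difference of 0.84 (SE 0.14) and Cntn2, the Purkinje fibre adhesion protein contactin 2, of 1.18 (SE 0.25).

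Irx1, Irx2, Irx5 and Scn10a belonged to none of the lists and are named after their values were seen. Irx1 (0.70, SE 0.15), Irx2 (1.02, SE 0.21), Irx5 (1.04, SE 0.16) and the sodium channel gene Scn10a (1.13, SE 0.23) passed as well, whereas the Iroquois gene Irx4 did not (-0.07, SE 0.07). Averaged over sections, Irx5 had 19.3 CPM in the class and 15.7, 12.5, 10.0 and 6.30 CPM in rings 1, 2, 3 and 4 or beyond, a slower fall than that of Npr3.

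The 10 genes with the largest differences among those reaching 20 CPM were Myl1, Plvap, Vwf, Gm15543, Etv1, Hmcn1, Dbh, Ccn3, Igfbp5 and H19. Myl1, a myosin light chain gene, measured 26.9, 32.6, 37.7, 39.3 and 83.8 CPM against 10.7, 5.85, 17.6, 14.5 and 29.2 CPM (1.49, SE 0.13). Lower in bordering spots were C3, Acta1, Ly6a, Lrrc2, Pltp, Srgn, Aqp1, Tagln, Ly6c1 and Rbp7. C3, complement component 3, measured 2.11, 22.0, 0.535, 1.01 and 7.59 CPM against 33.5, 70.5, 0.919, 10.95 and 125 CPM (-2.38, SE 0.33), but its difference was 0.02 against spots exactly 3 rings away. Of 12 listed coronary capillary genes 2, Aqp1 (-0.47, SE 0.08) and Ly6c1 (-0.46, SE 0.09), were lower in bordering spots (0.157% of all genes). Neither passed under the limit on the EndoEC score given below (-0.38, limma adjusted p = 0.071, and -0.35, limma adjusted p = 0.29).

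When bordering spots were kept only if their own EndoEC score was under 0.1, 14 genes were higher and 6 lower. Npr3 (1.24, limma adjusted p = 0.0046), H19 (0.50, adjusted p = 0.0006 in limma) and Myl1 (1.09) still passed. The other 3 markers, Plvap (0.80, limma adjusted p = 0.071), Vwf (0.61) and Cgnl1 (0.47), and Etv1 (0.59) no longer did. Among the genes with the largest differences named above, Gm15543, Hmcn1, Dbh, Ccn3, Igfbp5, Ly6a, Lrrc2, Pltp, Srgn, Aqp1 and Ly6c1 also lost the call. C3, Acta1, Tagln and Rbp7 kept it. Leaving out sham day 3 gave 17 and 2 genes, leaving out MI day 3 gave 39 and 14, and leaving out MI day 7 replicate 1 gave 39 and 8.

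**Figure D4:**
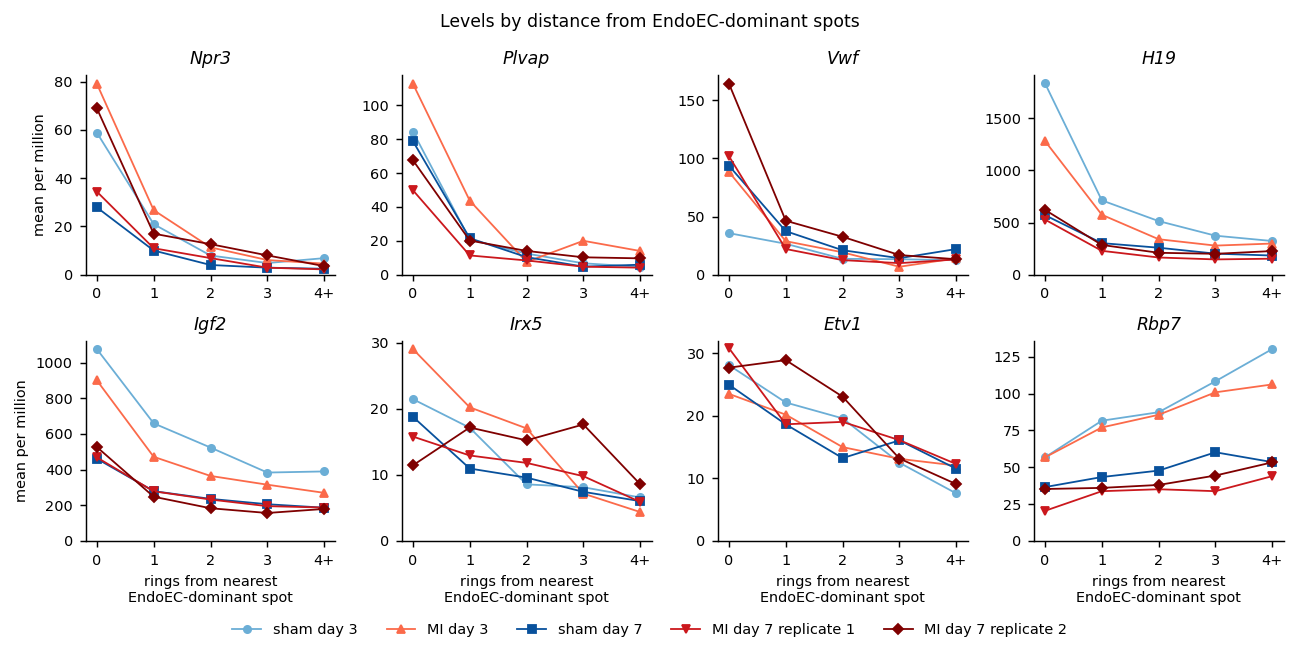
Mean level (CPM, linear axis from 0) by distance in rings of spots from the nearest EndoEC-dominant spot, where 0 is the class itself; each line is 1 section. Npr3, Plvap, Vwf, H19 and Igf2 drop from 0 to ring 1, Irx5 and Etv1 decline over several rings except Irx5 in MI day 7 replicate 2, which is lower at 0 than in rings 1 to 3, and Rbp7 is lowest at 0 in each section.

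Whether infarction changed the class was read within tables. For each section the log2 ratio of EndoEC-dominant to other spots was formed, and MI (3 sections) was compared with sham (2 sections) with the day in the model. No gene of 13383 passed in limma, and 257 larger and 370 smaller ratios had an unadjusted p below 0.05. Leaving out 1 section gave 0 and 2 genes (sham day 3), 0 and 1 (MI day 3), 13 and 12 (sham day 7), 15 and 16 (MI day 7 replicate 1) or 3 and 5 (MI day 7 replicate 2), in fits with 1 residual degree of freedom in place of 2. Levels themselves lie in tables that were normalised separately, sham day 3 not at all, so the fit of levels within EndoEC-dominant spots is a description: 47 of 13082 genes (0.359%) were called higher in MI and 8 (0.0612%) lower. The fit called none when sham day 3 or MI day 7 replicate 2 was dropped, 1 in each direction when MI day 3 was, and 88 and 19 when MI day 7 replicate 1 was.

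Among those called, AI506816 measured 1.74, 80.2, 1.04, 11.7 and 23.6 CPM and the Wnt modulator gene Sfrp2 15.1, 180, 13.7, 19.9 and 45.4 CPM, in both cases with every MI section above every sham section. The amino acid transporter gene Slc38a4 measured 126, 49.4, 103, 34.1 and 33.5 CPM, and the sterol synthesis gene Cyp51 40.6, 12.05, 39.2, 13.3 and 20.3 CPM, with every MI section below every sham section. Other spots ran alongside: AI506816 measured 1.02, 62.4, 2.32, 15.3 and 23.9 CPM there, and Slc38a4 131, 66.5, 85.9, 41.3 and 44.5 CPM. By list, 4 of 6 red blood cell genes, 4 of 11 fibroblast genes (Tcf21, Fn1, Fbln1 and Mfap4) and 3 of 10 macrophage genes (Lyz2, C1qc and Csf1r) were called higher in MI, beside 0.359% of all genes. The summed red blood cell level was 5109, 30154, 6922, 6646 and 23885 CPM in the class and 4339, 9599, 6902, 8744 and 10206 CPM in other spots, so MI day 7 replicate 1 was not above sham day 7 in the class. The macrophage sum was 179, 703, 122, 205 and 133 CPM in the class and 134, 1226, 149, 224 and 335 CPM in other spots, and MI day 7 replicate 2 was below sham day 3 in the class. None of the 4 endocardial markers and none of the 15 ventricular cardiomyocyte genes was called. Of those 15, none had a difference above 0 (median -0.19), against 5997 of all 13082 genes above 0.

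Central and peripheral EndoEC-dominant spots were compared after the positions had been seen, in limma with the section as block, and of 13484 genes 20 (0.148%) were higher and 2 (0.0148%) lower in central spots. The median of all genes shifted by 0.07 on the log2 scale. Plvap measured 156, 135, 108, 76.4 and 145 CPM in central and 58.1, 34.2, 55.6, 39.1 and 50.3 CPM in peripheral spots (1.35, SE 0.18, adjusted p = 0.0017 in limma). The lowest central level lay above the highest peripheral level. Of the other markers, Npr3 (0.71), Vwf (-0.47) and Cgnl1 (0.25) did not pass.

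The secreted protein genes Cytl1 (1.75, SE 0.32) and Sfrp2 (2.55, SE 0.39), Bace2 (1.16, SE 0.19), Apoe (0.94, SE 0.11), which encodes a lipid carrier, the taurine transporter gene Slc6a6 (1.00, SE 0.20) and the light chain genes Myl1 (2.97, SE 0.54) and Myl4 (1.17, SE 0.24) were also higher in central spots. Nppa measured 969, 18477, 298, 405 and 960 CPM against 398, 1293, 363, 60.6 and 254 CPM (1.89, SE 0.31), higher in 4 of 5 sections. Of 6 measured atrial cardiomyocyte genes 1 (Myl4) was called higher, with a list median of 0.72 and 6 of 6 above 0, and of 14 conduction and trabecular genes 2, Nppa among them, with a median of 0.89 and 13 of 14 above 0. Over all 13484 genes, 0.148% were called higher and 7679 were above 0. The part of such myocardium in the central spots was not tested. Of 11 listed fibroblast genes 5 were called higher (Col1a1, Col1a2, Col3a1, Lum and Fbln1), and 11 of 11 were above 0. The mean FB score was 17.5% to 27.3% in central and 0.436% to 16.2% in peripheral spots. The mean EndoEC score was 55.1% to 67.1% in central and 61.1% to 77.1% in peripheral spots, lower in central spots of every section but sham day 7. The part of either score in these differences was not tested. Of 13622 genes, 8 (0.0587%), among them Nppa, Col1a1, Col1a2 and Col3a1, had a larger central-to-peripheral ratio in the class than in other spots.

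Lower in central spots were Ddc and Igfbp5. Ddc, which encodes the aromatic amino acid decarboxylase, measured 88.9, 60.2, 46.3, 24.4 and 96.1 CPM against 220, 487, 71.0, 125 and 222 CPM (-1.68, SE 0.23, adjusted p = 0.0018 in limma). Igfbp5 measured 201, 220, 141, 148 and 132 CPM against 1088, 649, 155, 259 and 173 CPM (-1.06, SE 0.21), lower in every section and with the widest gap at day 3. The 20 genes became 7 under median-of-ratios scaling, 8 without mitochondrial and haemoglobin genes, 6 without sham day 3, 13 when MI day 7 replicate 1 was dropped and 5 when MI day 7 replicate 2 was dropped, and the 2 lower genes became 9 without MI day 3. Under median-of-ratios scaling Cytl1, Slc6a6, Myl4 and all 5 fibroblast genes lost the call, while Apoe, Plvap and Sfrp2 passed under it, without mitochondrial and haemoglobin genes, and with any 1 section left out. Ddc passed with any 1 section left out, whereas Igfbp5 did not pass without sham day 3, without MI day 3 or without the second MI day 7 section. The smallest groups were the 7 peripheral spots of MI day 3 and the 6 central spots of MI day 7 replicate 2.

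**Figure D5:**
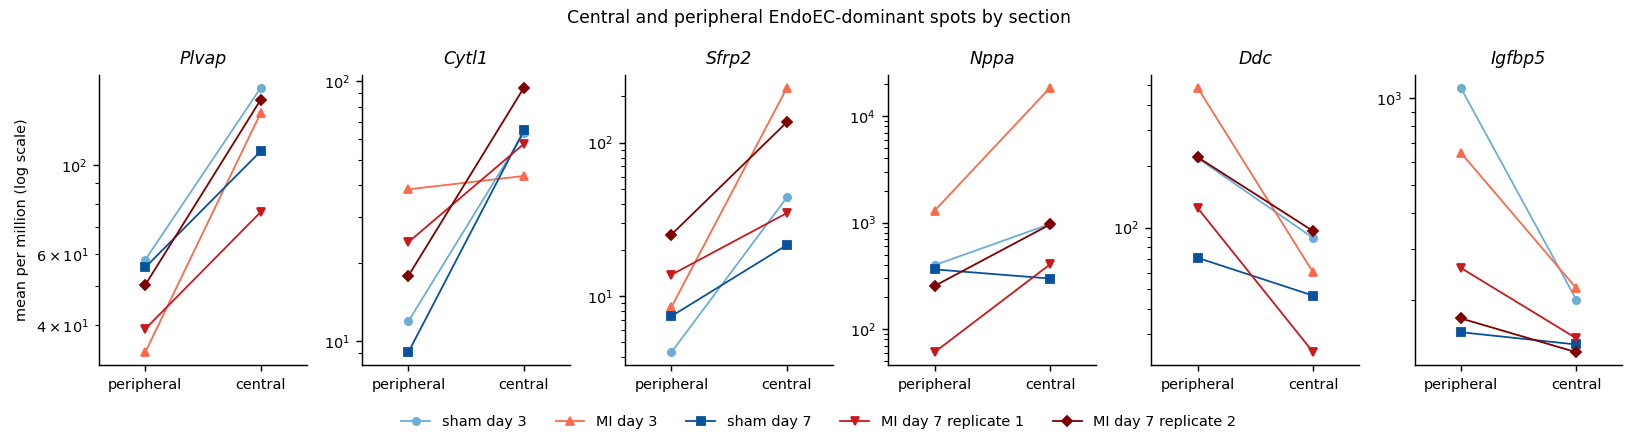
Lines join the mean level (CPM, log axis) of peripheral and central EndoEC-dominant spots of each section for 6 genes. Plvap, Cytl1 and Sfrp2 are higher in central spots of all sections, Nppa in 4 of 5, and Ddc and Igfbp5 are lower in central spots of all sections.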

How the data were processed

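Visium libraries of 5 heart sections were analysed spot by spot. The study aligned reads to GRCm38 with Space Ranger (version not given in the sources used here), normalised with sctransform and transferred cell type scores from single-nucleus data in Seurat. The deposited values of sham day 3 are raw UMI counts; those the authors deposited for the other 4 sections are sctransform-corrected counts, treated here as scores, which even out depth between spots. The deposited cell type scores are fractions from 0 to 1, printed as percent. Gene names listed more than once in a table were left out.

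The 13711 genes shared by all tables (at least 99.83% of each table's total) were scaled to CPM per spot and averaged by class. Tested genes reached 1 CPM in at least 2 columns. Since 4 tables do not hold raw counts, limma 3.58.1 (R 4.3.3) on log2(CPM + 1) with a mean-variance trend was used, with Benjamini-Hochberg adjustment. Spots under 1000 UMIs (22) or off the main tissue (18) were left out, some for both reasons; neighbours lay within 1.2 spacings. Named genes, at 20 CPM or more, were the 15 highest and 10 lowest by least-changed section, up to 10 called genes per direction, directions with fewer than 6 calls, and genes of the lists. Members and lists were chosen with earlier results of these data known. The fits were tested on simulated data. Alternatives were pseudocount 5, no filter, leaving out 17 mitochondrial and haemoglobin genes, median-of-ratios scaling, summed values, a CM1 reference, an EndoEC score of at least 0.5, 5000 UMIs, and each section left out. Some genes are not reported here.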

Additional observations from a re-analysis of the deposited data

Results flagged for a closer look

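The central-to-peripheral ratio differed between EndoEC-dominant and other spots for 8 genes of 13622 (0.0587%), by a test of the difference itself (limma on the difference of log2 ratios over 5 sections, adjusted p below 0.05). All 8 had the larger ratio in EndoEC-dominant spots: Nppa (1.36), Clu (1.08), Mfap4 (0.86), Col1a1 (0.79), Eln (0.73), Col1a2 (0.67), Igfbp7 (0.53) and Col3a1 (0.52), on the log2 scale. Col3a1, a fibrillar collagen gene, measured 2965, 3205, 3424, 4327 and 5522 CPM in central and 1904, 2091, 2449, 3226 and 3280 CPM in peripheral EndoEC-dominant spots, against 1776, 2385, 1823, 2338 and 2628 CPM in central and 1593, 1897, 1928, 2149 and 3096 CPM in peripheral other spots. Plvap (0.30) and Ddc (-0.99, unadjusted p = 0.00014) did not pass this test. Leaving out 1 section left 1 to 7 genes with a larger ratio, with 1 without MI day 7 replicate 2, 3 without sham day 3 and 3 without MI day 7 replicate 1.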

How the results depend on the processing

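For MI against sham by replicate number, no paired analysis was possible because the groups share fewer than 2 replicate numbers; comparisons within sections kept the section as block. Genes 1.5-fold higher in the class numbered 199 against CM1-dominant spots and 48 with pseudocount 5, and 82 to 107 with 1 section left out. Those 1.5-fold lower numbered 7, 1 and 23 to 35 in the same order, and 22 without mitochondrial and haemoglobin genes; with fewer sections to pass, counts rise by construction. The marker median was 3.13 against CM1-dominant spots, 2.11 with pseudocount 5 and 2.34 to 2.60 with 1 section left out. For bordering spots, leaving out 1 section gave 17 to 64 higher and 2 to 20 lower genes. Lower genes numbered 38 under median-of-ratios scaling, 5 against spots exactly 3 rings away and 13 with 6-neighbour spots, and the limit on the EndoEC score gave 14 higher and 6 lower; C3 turned to 0.021 at exactly 3 rings. MI levels gave 19 and 4 genes without mitochondrial and haemoglobin genes, 21 and 4 under median-of-ratios scaling, and 0 to 88 and 0 to 19 with 1 section left out, where Nppa ran from -0.43 to 4.73 and Casq1 from -2.05 to 0.20. MI ratios gave 0 to 15 larger and 1 to 16 smaller. Central against peripheral spots gave 8 higher and 1 lower without mitochondrial and haemoglobin genes, 7 higher under median-of-ratios scaling, 5 lower with pseudocount 5, 1 lower without a filter, and 5 to 24 and 1 to 9 with 1 section left out; set against other spots, 5 larger ratios without mitochondrial and haemoglobin genes, 2 smaller with pseudocount 5, and 1 to 7 and 0 to 2 with 1 section left out. Depth below the edge ran from 0.62 to 1.51 rings with 1 section left out. The share difference ran from -2.32 to 2.04 with 1 section left out. The cause of these shifts was not tested.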
